A study of Mus musculus with 4 samples.

Results

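Imprinted genes with roles in embryonic growth and brain development were followed in the dorsal and medial palliums of E11.5 mouse embryos, the parts of the forebrain wall that give rise to neocortex and hippocampus. The genes were chosen by name, H19, Igf2, Meg3, Dlk1, Cdkn1c, Peg3, Peg10, Grb10, Ndn and Plagl1, and their Ensembl identifiers were looked up among the 16449 rows of a table of long-read counts per gene. Of these 10 genes, 8 had a row and 7 had enough counts to be tested. Dlk1 fell below the filter on low counts, and Peg10 and Ndn were not analysed here. There were 2 wild-type (WT) libraries and 2 labelled Tut1 knockout. In the study the knockout is Tut1 f/f;Emx1-Cre, and its sequencing statistics list the WT embryos as Tut1 f/f without Cre, so that both groups carry floxed Tut1 alleles (elsewhere in the study WT also takes in Tut1 f/+). Cre is expressed from the Emx1 locus and acts in the neural stem cells of the pallium, so that their descendants carry the deletion too, and cells outside that lineage, such as those of vessels and meninges, keep Tut1. How many embryos went into a library is not stated, and p-values measure only the spread between these libraries, which may be technical. For each gene, that spread was taken mostly from all genes together.

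An imprinted gene is transcribed mainly from 1 parental allele, which is set by DNA methylation laid down in the germ line. Paternally expressed imprinted genes such as Igf2, Dlk1 and Peg3 tend to promote fetal growth, and maternally expressed ones such as H19, Cdkn1c and Grb10 tend to restrain it. Many are members of clusters in which a coding gene and a non-coding RNA are expressed from opposite alleles, H19 with Igf2 and Meg3 with Dlk1 among them. Igf2 is made abundantly in fetal mesoderm, and in the developing brain chiefly by the choroid plexus, the meninges and blood vessels. A count per gene does not tell the alleles apart, so imprinting itself was not measured.

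The sequences of H19 and Igf2 show what a count per gene pools. H19 (ENSMUSG00000000031; GRCm38 chromosome 7, 142575529 to 142578143, minus strand) is a long non-coding RNA, and the hairpin of Mir675 lies within 3 of its annotated exons. The mature arms (RefSeq, GRCm38.p6) are shown because reads of H19 can carry them. Capitals mark the seed, bases 2 to 8, which the arms do not share.
mmu-miR-675-5p: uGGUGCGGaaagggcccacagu
mmu-miR-675-3p: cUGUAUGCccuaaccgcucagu

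Igf2 (ENSMUSG00000048583; chromosome 7, 142650766 to 142666816, minus strand) encodes insulin-like growth factor 2. RefSeq gives 4 start sites for it, all pooled in 1 count. Windows of 300 bases, from 250 before to 50 after a start, held between 2 and 24 CG dinucleotides, the sites of DNA methylation, against a median of 7 over all promoter windows of RefSeq. The poorest and the richest are shown on the minus strand, with every CG in capitals, as the range over the annotated starts. Which of these starts were used here was not measured. The poorest window is chr7:142666767-142667066 and the richest chr7:142658755-142659054.
Igf2 start 1: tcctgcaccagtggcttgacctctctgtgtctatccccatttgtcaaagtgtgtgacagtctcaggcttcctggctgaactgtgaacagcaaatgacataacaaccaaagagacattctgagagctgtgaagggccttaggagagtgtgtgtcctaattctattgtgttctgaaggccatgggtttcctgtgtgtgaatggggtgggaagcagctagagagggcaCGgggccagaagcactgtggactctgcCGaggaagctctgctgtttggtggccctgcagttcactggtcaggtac
Igf2 start 3: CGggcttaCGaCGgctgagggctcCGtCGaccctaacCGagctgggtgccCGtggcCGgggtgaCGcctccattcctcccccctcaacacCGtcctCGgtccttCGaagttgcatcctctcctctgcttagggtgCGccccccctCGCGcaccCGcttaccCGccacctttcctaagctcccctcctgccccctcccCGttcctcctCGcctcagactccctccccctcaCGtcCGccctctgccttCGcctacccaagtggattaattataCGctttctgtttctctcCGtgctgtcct

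Total counts over genes were low, between 305642 and 397150 per library. In CPM, the count scaled to a common library size by TMM, 1 count was thus worth between 2.66 and 3.47. The study's sequencing statistics list many more reads for each of these libraries, so the counts hold only a small part of them. Why the rest were not counted is not given in the sources used here. Tut1, the targeted gene, had 6 and 11 counts in WT against 29 and 25 in the knockout-labelled libraries, more and not fewer (1.71 ± 0.40 on the log2 scale, edgeR, adjusted p = 0.0113). That call was lost when any library other than WT replicate 2 was left out. Since only an exon is deleted, a count over the whole gene does not check the genotype, and every direction below follows the labels. WT replicate 1 alone had Xist counts. Of 8 progenitor markers, summing to between 1020.5 and 1235 CPM per library, 7 were counted in every library, Pax6, Nes and Vim among them, and Hes5 had 0 counts in WT replicate 1. Of these 7, all tested, 5 had a negative and 2 a positive fold change and 0 were called (median -0.14), from Emx2 at the low end to Fabp7 at the high end (0.66 ± 0.50, edgeR, adjusted p = 0.618). Emx2, the marker of the pallium itself, had 48 and 62 counts in WT against 23 and 31 in the knockout-labelled libraries (-0.96 ± 0.28 on the log2 scale, edgeR, adjusted p = 0.0639), and Sox2 had 13 and 22 against 10 and 12 (-0.60 ± 0.42, 0.571).

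Igf2 was the 1 gene of the 7 tested to pass the test between the groups, and it was higher in the knockout-labelled libraries. It had 41 and 63 counts in WT against 180 and 52 in the knockout-labelled libraries, or 124 and 176 against 478 and 181 CPM. Knockout-labelled replicate 1 thus stood far above the other 3 libraries, and knockout-labelled replicate 2 lay next to WT replicate 2. The group means were 150.1 ± 36.6 CPM in WT and 329 ± 211 CPM in the knockout-labelled libraries (SD, n = 2 each). The log2 fold change was 1.16 ± 0.27 (SE; edgeR quasi-likelihood test, adjusted p = 0.0110), with a 95% interval of 0.61 to 1.71. Across all 5878 tested genes, 121 were called at an adjusted p below 0.05 (2.06%), 82 of them higher (1.4%) and 39 lower (0.663%) in the knockout-labelled libraries.

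The rise of Igf2 rested on a single library. Within the knockout-labelled libraries its level differed 2.65-fold between replicates (95% interval 1.94 to 3.68, exact binomial, covering counting error only). The 2 WT replicates had a ratio of 0.706 (0.464 to 1.06), which was within counting error. Without knockout-labelled replicate 1 the log2 fold change was 0.26 ± 0.30 and the adjusted p 0.839 (edgeR), and without knockout-labelled replicate 2 they were 1.66 ± 0.24 and 0.00517. The call was also lost without WT replicate 1 (0.93, adjusted p = 0.0649), after thinning to the smallest library (1.10, 0.0626) and in DESeq2 (1.11, 0.647), where the log2 fold change stayed closer to that with all libraries. An exact permutation test over 2 against 2 libraries cannot give a two-sided p below 0.333. In the annotation, Gm49394 on the same strand and the antisense gene Igf2os overlap exons of Igf2. Whether strand was used in counting is not stated, and their reads cannot be told apart from those of Igf2 here.

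**Figure D1:**
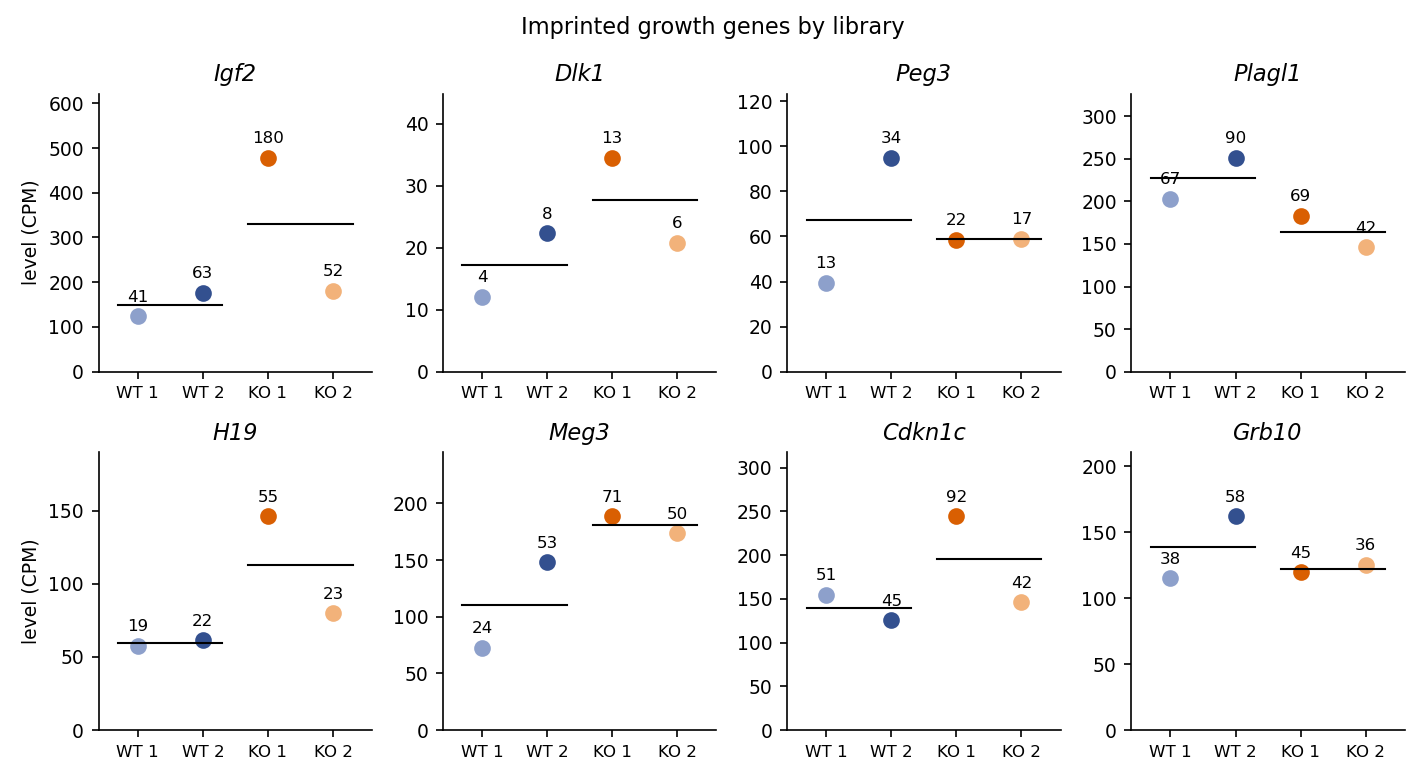
Level in CPM (y axis, from 0 in each panel) of the 8 imprinted genes with a row in the table, by library (x axis; WT 1 and WT 2, and KO 1 and KO 2, the replicates labelled knockout). Points are libraries with their raw counts printed beside them and lines are group means; Igf2, H19 and Cdkn1c are highest in KO 1, at 478, 146 and 244 CPM, and KO 2 lies nearer to the WT libraries than to KO 1.

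H19, which is expressed from the maternal allele next to Igf2 and limits growth, had the same order of libraries. It had 19 and 22 counts in WT against 55 and 23 in the knockout-labelled libraries, or 57.6 and 61.4 against 146 and 79.9 CPM. Both knockout-labelled libraries lay above both WT libraries, with knockout-labelled replicate 1 the highest. Its log2 fold change of 0.96 ± 0.32 did not pass the threshold over all genes (edgeR adjusted p = 0.113, 95% interval 0.31 to 1.60). Between the replicates labelled knockout it differed 1.83-fold (1.11 to 3.12, counting error only), and without replicate 1 its log2 fold change was 0.42 ± 0.41.

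Cdkn1c (ENSMUSG00000037664; chromosome 7, 143458339 to 143461050), in the imprinted domain next to H19 and Igf2, encodes the cyclin-dependent kinase inhibitor p57Kip2, which helps progenitors to leave the cell cycle. It had 51 and 45 counts in WT against 92 and 42 in the knockout-labelled libraries, or 154 and 126 against 244 and 146 CPM. The groups overlapped, since knockout-labelled replicate 2 lay between the WT libraries. The log2 fold change was 0.51 ± 0.25 (edgeR, adjusted p = 0.365), with an interval of -0.01 to 1.02. The replicates labelled knockout differed 1.68-fold (1.15 to 2.48), and without replicate 1 the log2 fold change fell to 0.06 ± 0.31. The antisense gene Gm44732 overlaps its exons.

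These 3 genes were at least 1.5-fold higher in knockout-labelled replicate 1 than in every other library, at ratios to the highest other library of 2.65 for Igf2, 1.83 for H19 and 1.58 for Cdkn1c. Of all tested genes, 131 (2.23%) met this rule for that library, against 82 (1.4%) for WT replicate 1, 116 (1.97%) for WT replicate 2 and 103 (1.75%) for knockout-labelled replicate 2. In WT replicate 2 it was met by 1 of the imprinted genes, Peg3, and in the remaining libraries by none. The rule and the grouping were chosen after the values were seen and carry no test. Dlk1, too scarce to be tested, was also highest in that library, at 1.55 times the next.

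Dlk1 and Meg3 share a cluster on chromosome 12. Dlk1 (ENSMUSG00000040856; 109452823 to 109463336, plus strand) encodes a transmembrane relative of the Notch ligands and is expressed from the paternal allele. It had 4 and 8 counts in WT against 13 and 6 in the knockout-labelled libraries, and the groups overlapped. Tested without the filter, over 15083 genes, the log2 fold change of Dlk1 was 0.70 ± 0.55 (edgeR, adjusted p = 0.862), and counts this low could not show a difference of that size.

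Meg3 (ENSMUSG00000021268; 109541001 to 109571726, plus strand), the maternally expressed long non-coding RNA of the cluster, had another pattern. There were 24 and 53 counts in WT against 71 and 50 in the knockout-labelled libraries, or 72.7 and 148 against 189 and 174 CPM. Here the replicates labelled knockout lay close together (ratio 1.09, 0.746 to 1.59), and the WT replicates differed beyond counting error (ratio 0.491, 0.290 to 0.810), with WT replicate 1 the low library. The log2 fold change was 0.70 ± 0.27 (edgeR adjusted p = 0.190, interval 0.16 to 1.25). It passed the threshold only when WT replicate 2 was left out (1.31 ± 0.36, adjusted p = 0.0252), and without WT replicate 1 it was 0.29 ± 0.32. Gm26906 overlaps 4 Meg3 exons on the opposite strand.

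Rian and Mirg, non-coding RNAs downstream of Meg3 that are thought to belong to the same maternal transcription unit, were counted as well, and whether they differed from Meg3 was not tested. Rian had 21 and 22 counts in WT against 35 and 12 in the knockout-labelled libraries (log2 difference 0.16 ± 0.36, edgeR adjusted p = 0.902). Its 2 replicates labelled knockout lay on either side of WT. Mirg had 2 and 6 against 2 and 3 counts, too few to be tested.

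**Figure D2:**
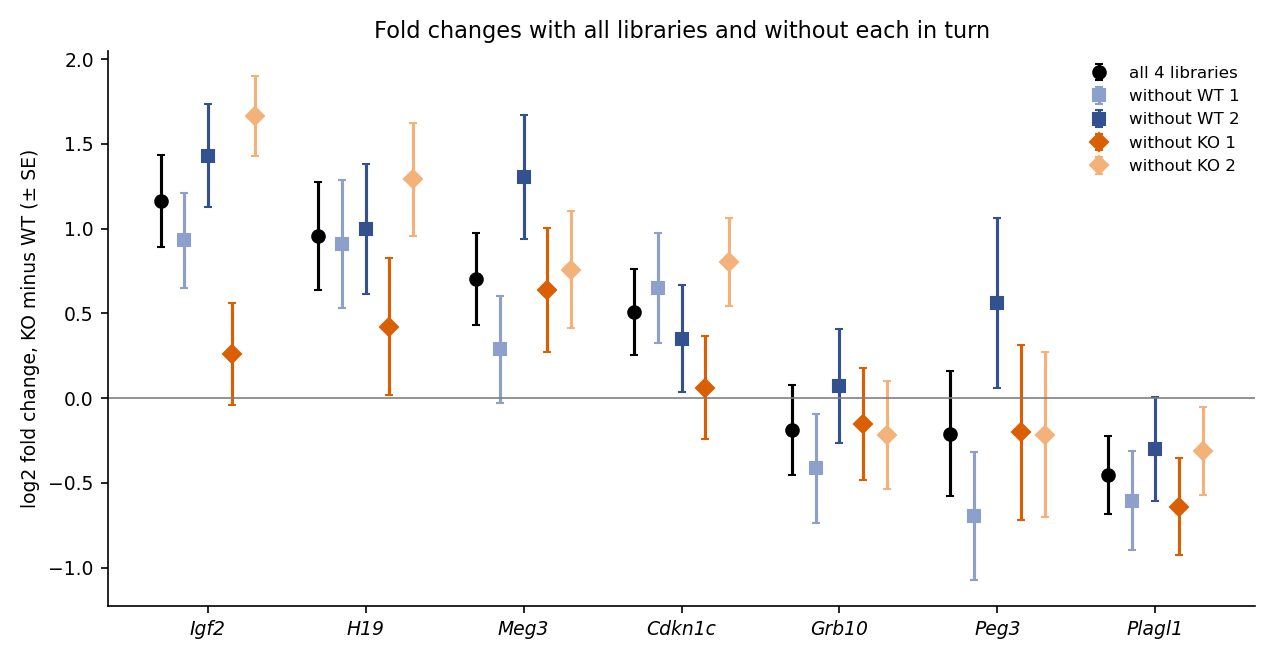
Log2 fold change, knockout-labelled libraries minus WT, with its SE (y axis) for the 7 tested imprinted genes (x axis), with all 4 libraries and without each in turn (edgeR). Igf2 moves from 1.16 to 0.26 without KO 1 and to 1.66 without KO 2; Peg3 and Grb10 change sign without WT 2.

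Peg3, Grb10 and Plagl1 had negative fold changes, none past the threshold. Plagl1 (ENSMUSG00000019817; chromosome 10, 13060504 to 13131694, plus strand) encodes a zinc finger transcription factor, also called Zac1, that can act on other imprinted genes. It had 67 and 90 counts in WT against 69 and 42 in the knockout-labelled libraries, or 203 and 251 against 183 and 146 CPM. Both knockout-labelled libraries lay below both WT libraries. The log2 fold change was -0.45 ± 0.23 (edgeR, adjusted p = 0.374, interval -0.92 to 0.01), and it was negative under every setting that was run, between -0.64 and -0.29.

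Grb10 (ENSMUSG00000020176; chromosome 11, 11930508 to 12038683, minus strand) encodes an adaptor protein that dampens signalling from the insulin and IGF1 receptors, and is expressed from the maternal allele in most tissues and from the paternal allele in neurons. Its 38 and 58 counts in WT against 45 and 36 in the knockout-labelled libraries correspond to 115 and 162 against 119.6 and 125 CPM. The knockout-labelled libraries both fell between the WT libraries. On the log2 scale the groups differed by -0.19 ± 0.26 (edgeR, adjusted p = 0.836, interval -0.72 to 0.34).

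Peg3 (ENSMUSG00000002265; chromosome 7, 6703892 to 6730431, minus strand) encodes a paternally expressed zinc finger protein. Its WT replicates, with 13 and 34 counts, were farther apart than the groups, and the knockout-labelled libraries had 22 and 17. In CPM these are 39.4 and 94.97 against 58.5 and 59.0, so the knockout-labelled libraries again lay between the WT libraries. Between the groups the log2 fold change was -0.21 ± 0.37 (edgeR adjusted p = 0.875, interval -0.96 to 0.54). Without WT replicate 2 it was 0.56 ± 0.50. Usp29, its paternally expressed neighbour, had 5 and 6 counts against 11 and 2.

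Grouped by parental allele, 3 of 4 tested maternally expressed genes, with Grb10 counted here by its allele in most tissues, had a positive fold change and 0 were called. For this group edgeR had H19 and Meg3 at an unadjusted p below 0.05 (0.00474 and 0.0132), as were 834 of all tested genes (14.2%). Neither DESeq2, which gave no adjusted p for these 4 genes, nor limma-voom called any. Of the 3 tested paternally expressed genes 1 was positive, Igf2, and was called. In 3 of the 7 genes, Igf2, H19 and Meg3, both knockout-labelled libraries lay above both WT libraries in CPM, as for 22.1% of all tested genes, and Plagl1 lay below in both, as for 20.8%. The median log2 fold change was 0.51 over the 7 genes and -0.01 over all tested genes. It was the value of Cdkn1c, and the median over the 7 genes was 0.06 without knockout-labelled replicate 1, 0.29 without WT replicate 1, 0.56 without WT replicate 2 and 0.76 without knockout-labelled replicate 2.

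Other imprinted genes were examined next, from a list of 51, of which 36 had a row and 12 were tested. None was called by edgeR or limma-voom. DESeq2 also called none, but it gave no adjusted p to genes as scarce as Cdkn1c, so it could not call the scarcer ones. In edgeR 2 of 12 had an unadjusted p below 0.05, near the 14.2% of all tested genes, 7 had a positive and 5 a negative fold change, and the median was 0.14. Nnat, which encodes the small membrane proteolipid neuronatin, came closest. It had 347 and 457 counts in WT against 705 and 373 in the knockout-labelled libraries, or 1051 and 1276 against 1874 and 1296 CPM, and knockout-labelled replicate 1 was again the highest library. The log2 fold change was 0.45 ± 0.14 (edgeR, adjusted p = 0.0842), and it passed the threshold when scaled by total counts alone (0.0487) or with a filter of 20 counts in 2 libraries (0.0187). H13, which encodes an intramembrane protease, had -0.41 ± 0.19 (adjusted p = 0.313). Mest, which encodes a hydrolase-like protein expressed from the paternal allele, had 0.53 ± 0.27 (0.363), and its low library was WT replicate 1, as for Meg3. Commd1 had -0.21 ± 0.14 (0.554) and Asb4 0.69 ± 0.51 (0.600).

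Some partners of the chosen genes in their clusters were too scarce to be tested. Sgce, which shares a promoter region with Peg10, had 5 and 4 counts in WT against 9 and 5 in the knockout-labelled libraries. In the cluster of Ndn, Snrpn had 6 and 2 against 6 and 4 counts, Magel2 1 and 1 against 0 and 1, and Mkrn3 1 and 1 against 0 and 3. Other genes of these clusters were tested and not called, and they are named here after their values were seen. Ppp1r9a, beside Sgce and Asb4, had 71 and 97 against 85 and 59 counts (-0.17 ± 0.21 on the log2 scale, edgeR, adjusted p = 0.808). Ube3a, the ubiquitin ligase gene near Snrpn, had 37 and 49 against 43 and 29 (-0.21 ± 0.27, 0.818). In the domain of Cdkn1c, Nap1l4 had 201 and 201 against 224 and 158 (-0.03 ± 0.16, 0.963) and Cd81 had 10 and 11 against 17 and 8 (0.29 ± 0.45, 0.852). Peg12, Zim1, Kcnq1ot1 and Phlda2 were not analysed here.

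None of the genes through which IGF2 acts, or that bind it, passed the test. Of 16 receptors, binding proteins, adaptors and mRNA-binding proteins, 10 were tested and 0 called by edgeR or limma-voom. DESeq2 also called 0, but it gave no adjusted p to genes as scarce as Cdkn1c, so it could not call the scarcer ones. The median log2 fold change of the 10 was 0.09, with 6 positive and 4 negative. In edgeR 1 had an unadjusted p below 0.05, against 14.2% of all tested genes. That gene was Insr, the insulin receptor, which also binds IGF2, with 6 and 6 counts in WT against 18 and 9 in the knockout-labelled libraries (1.20 ± 0.51, adjusted p = 0.247). Igf1r, the main signalling receptor of IGF2, had 43 and 62 against 61 and 68 counts (0.37 ± 0.25, 0.561). Igf2r, the receptor that clears IGF2 and is itself imprinted, had 8 and 8 against 11 and 6 counts and was not tested.

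Among the binding proteins, Igfbp4 shared with Igf2 its highest library and not the order of the others. It had 201 and 224 counts in WT against 416 and 143 in the knockout-labelled libraries, or 609 and 626 against 1106 and 497 CPM. Knockout-labelled replicate 1 was the highest library and replicate 2 the lowest, so the log2 fold change of 0.40 ± 0.20 did not pass the threshold (edgeR adjusted p = 0.353). It passed when replicate 2 was left out (0.84, adjusted p = 0.0276). Igfbp5 had -0.54 ± 0.36 (0.553). Igf2bp1, which encodes an RNA-binding protein that binds Igf2 mRNA, had -0.41 ± 0.22 (0.433).

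Factors that maintain imprints were compared in the same way, with the abundance and the error differing between them. Of 12 such genes 11 were tested, 0 were called by edgeR or limma-voom, and 1 had an unadjusted p below 0.05 in edgeR, where all tested genes had 14.2%. DESeq2 also called 0, but it gave no adjusted p to genes as scarce as Cdkn1c, so it could not call the scarcer ones. The median log2 fold change was -0.09, with 3 positive and 8 negative. Ctcf, whose product binds the control region between H19 and Igf2 on the maternal allele, had 86 and 115 counts in WT against 73 and 70 in the knockout-labelled libraries (-0.43 ± 0.21, adjusted p = 0.344). Trim28 had -0.35 ± 0.29 (0.657) and Dnmt1, the maintenance DNA methyltransferase, -0.19 ± 0.20 (0.743). Zfp57, whose product recruits TRIM28 to methylated control regions, had 0.29 ± 0.31 (0.760), and Arid4a had -0.17 ± 0.24 (0.842).

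**Figure D3:**
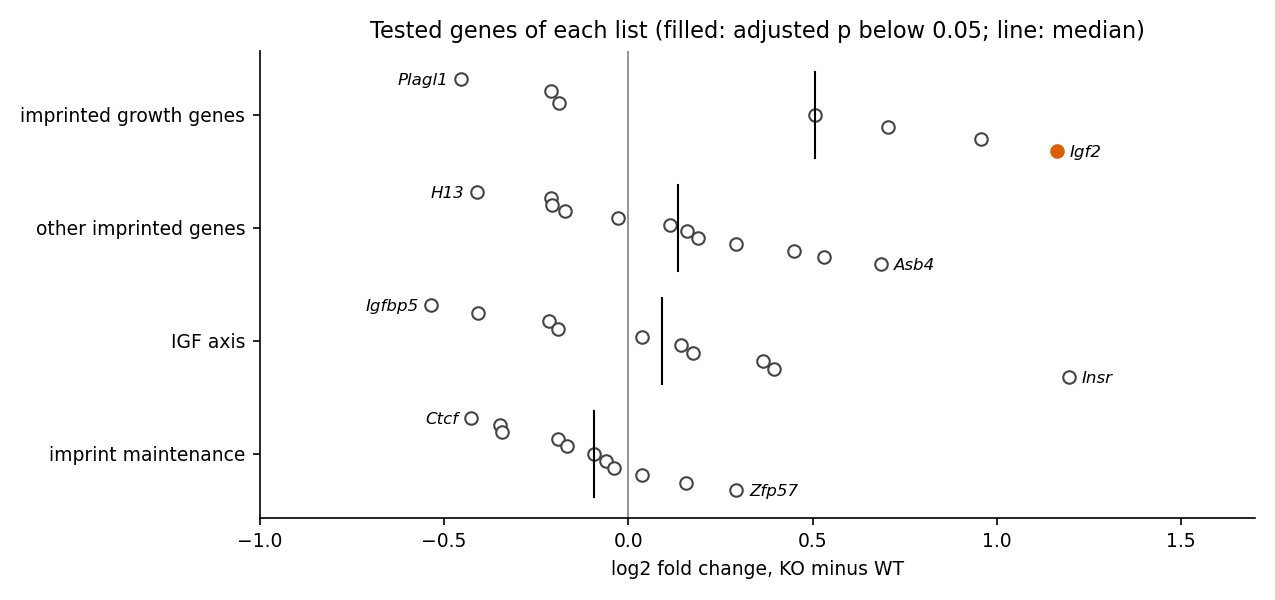
Log2 fold change, knockout-labelled libraries minus WT (x axis), of each tested gene in 4 lists (y axis; 7 imprinted growth genes, 12 other imprinted genes, 10 IGF axis genes and 11 imprint maintenance genes; edgeR). Igf2 is the 1 gene filled as past the threshold, the black lines mark medians of 0.51 (0.06 without KO 1), 0.14, 0.09 and -0.09, and the lowest and highest gene of each list are named.

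Markers of other cell types were set beside these values, because Igf2 and H19 are known to be abundant outside the neural wall. In bulk tissue, fewer cells of a type and less RNA per cell cannot be told apart. The summed level of the choroid plexus markers was 106 and 89.4 CPM in WT and 327 and 104 in the knockout-labelled libraries, with knockout-labelled replicate 1 alone standing apart, as for Igf2. Nearly all of it was Ttr, the thyroid hormone carrier of the choroid plexus, with 31 and 26 counts in WT against 114 and 29 in the knockout-labelled libraries (log2 difference 1.33 ± 0.32, edgeR adjusted p = 0.0152). The other 3 choroid plexus markers measured had few counts and did not all follow Ttr. Folr1 had 2 and 6 against 5 and 0 counts, Clic6 1 and 0 against 4 and 0, and Kcnj13 1 and 0 against 0 and 1.

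The mesenchyme and meninges markers, 8 measured of 10, summed to 106 and 277 CPM in WT and 489 and 326 in the knockout-labelled libraries. Col1a2, a chain of type I collagen, was called (2.12 ± 0.47, edgeR adjusted p = 0.00742), and Lum and Pdgfra had 0 counts in some library. WT replicate 1 was the lowest library for this sum, as it was for Igf2, H19, Meg3, Dlk1, Peg3 and Grb10. Of these genes, the WT replicates differed beyond counting error only for Meg3 and Peg3. Of all tested genes, 323 (5.5%), Meg3 among them, were at least 1.5-fold lower in WT replicate 1 than in every other library. Endothelial markers, all 8 measured, were at 218 and 235 CPM against 391 and 358, and red cell markers, 6 measured of 7, at 1324 and 1740.1 against 2137 and 1434. The red cell genes did not move together, since the embryonic globin Hbb-bh1 was called lower (16 and 47 against 4 and 13 counts, -1.80 ± 0.46, edgeR, adjusted p = 0.0279) and Hba-x had 15 and 24 against 43 and 36 counts (1.07 ± 0.31, 0.0563). The part of these cell types in the level of Igf2, H19 and Cdkn1c was not tested.

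The summed levels of neuron and of microglia markers were higher in both knockout-labelled replicates than in WT, though not those of every marker. Neuron markers, all 8 measured, summed to 651 and 654 CPM in WT and 1347 and 1278 in the knockout-labelled libraries, and the 6 microglia markers to 96.9 and 103 against 388 and 337. All 4 tested microglia markers were called higher in the knockout-labelled libraries, with log2 fold changes from 1.39 for Csf1r to 2.53 for Tyrobp (edgeR, adjusted p between 0.000755 and 0.0188). All 8 neuron markers had a positive fold change and 2 were called, Mapt (1.83 ± 0.22, adjusted p = 8.85e-07) and Dcx (1.17 ± 0.24, 0.00461). Among the neuron markers not called, Tubb3 was at 109 and 92.2 against 146 and 79.9 CPM, and Neurod6 had 12 and 3 against 10 and 10 counts. The microglia markers C1qa, with 0 and 0 against 1 and 2 counts, and C1qb, with 0 and 1 against 0 and 0, were too scarce to be tested. GABAergic markers, 6 measured of 8 with 5 at 0 counts in some library, summed to 15.1 and 72.6 against 186 and 97.2 CPM. Knockout-labelled replicate 1 was at 1.91 times the next library. Dlx1 was called, with 0 and 8 against 34 and 14 counts (2.59 ± 0.55, edgeR, adjusted p = 0.00494). Gad2 was tested and not called (1.78 ± 0.63, 0.142), and Gsx2 had 0 and 2 against 0 and 0 counts.

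**Figure D4:**
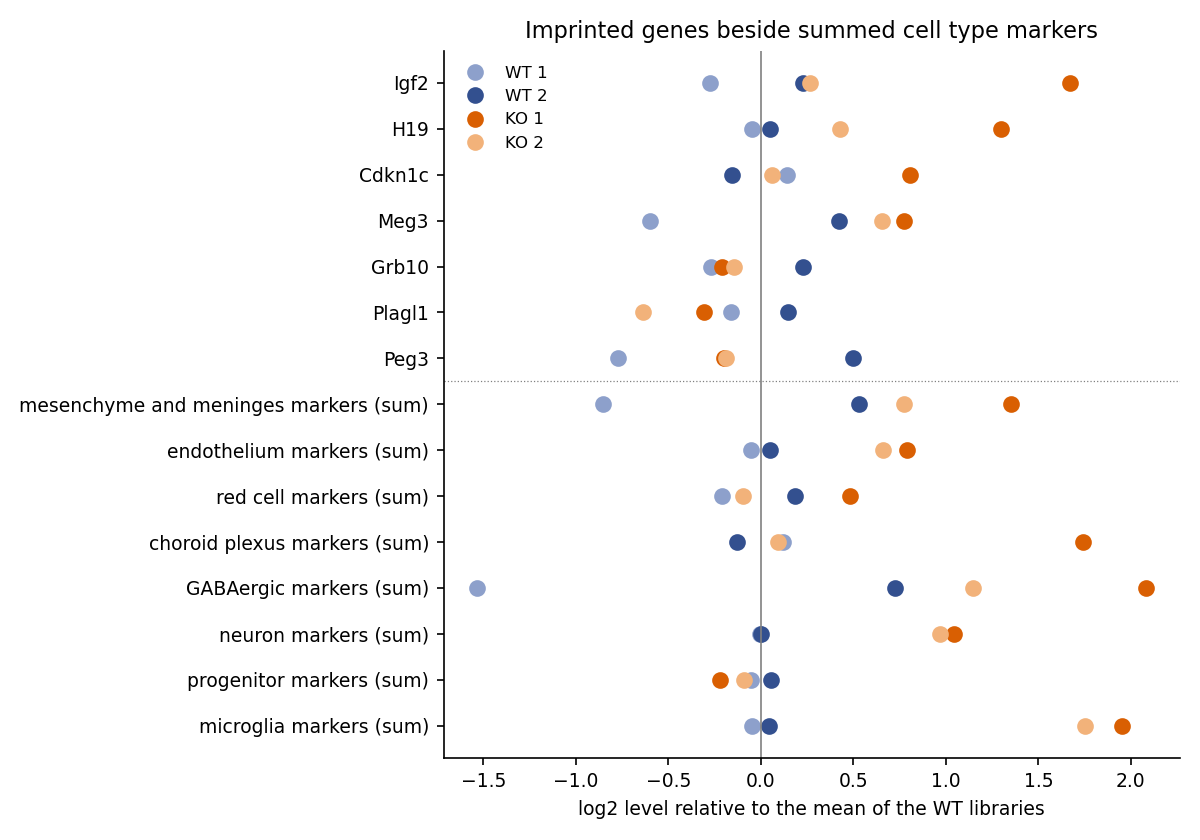
Level of each tested imprinted gene and of the summed markers of 8 cell types (y axis) in each library, as log2 relative to the mean of the WT libraries (x axis). In KO 1, Igf2 (1.67) and the choroid plexus sum (1.74) stand apart from the other 3 libraries, where both lie between -0.27 and 0.27, and the neuron and microglia sums are high in KO 1 and KO 2 alike.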

How the data were processed

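Poly(A)-enriched RNA from 4 libraries was sequenced on a Nanopore instrument. According to the methods, the authors aligned reads with minimap2 to the Ensembl mouse transcriptome (GRCm38 per the labels) and used FLAIR. The deposited table holds raw counts per gene with no normalization. How isoforms were summed, how ambiguous reads were assigned and whether counting used strand is not given in the sources used here. Symbols and positions came from GENCODE M21 (GRCm38), which matched 16436 of 16449 identifiers. Promoter and miRNA sequences are from RefSeq (GRCm38.p6), which gave promoter windows for 7 of the 10 genes.

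Counts were fitted in edgeR 4.0.16 (R 4.3.3): filterByExpr (minimum count 10, minimum total 15), TMM, glmQLFit and glmQLFTest in default form, two-sided, no covariate, Benjamini-Hochberg over 5878 genes, threshold 0.05. CPM of every row uses the TMM-scaled totals. SE is the absolute log2 fold change over the square root of F. The fit shared spread across genes, with 37.5 prior against 2 residual degrees of freedom. The edgeR p-values and intervals thus rest mostly on that shared spread, not on each gene's own. Intervals between replicates are exact binomial at 95%. Alternatives used DESeq2 1.42.0 and limma 3.58.1. The edgeR procedure was tested on simulated data. The counts of replicates did not agree within counting noise (chi-square per degree of freedom 1.31 in WT, 1.28 in the libraries labelled knockout), so no library was treated as one deposited more than once, which does not show that replicates are separate embryos.

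All 10 genes were named, with Tut1, the cluster partners, and up to 5 genes of each further list by smallest p. Marker genes and genes named for their library pattern were picked with their values in view. Genes and lists were chosen with earlier results of these data known.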

Additional observations from a re-analysis of the deposited data

How the results depend on the processing

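The number of imprinted growth genes called was 1, and 2 with a filter of 20 counts in 2 libraries, which added H19 (adjusted p = 0.0488). It was 0 in DESeq2, with the replicate number as a block and after thinning, and ranged from 0 to 2 when 1 library was left out. Igf2 was called under 9 of 14 other settings and was positive in all 14, with log2 fold changes between 0.26 and 1.66 and adjusted p between 0.000124 and 0.839. Over all genes, 121 were called, against 13 in DESeq2, 76 with the block, 73 after thinning and between 3 (without knockout-labelled replicate 1) and 108 with 1 library left out. It was 75 without WT replicate 1 and 35 without knockout-labelled replicate 2. Scaling by total counts alone raised the share of higher calls from 67.8% to 81.4%, and DESeq2 gave 38.5%. Other imprinted genes went from 0 to 1 (Nnat) with total counts alone and with the filter of 20 counts, and IGF axis genes ranged from 0 to 1 with 1 library left out. Leaving out a library moved Peg3 between -0.70 and 0.56 and Grb10 between -0.42 and 0.073. DESeq2, fitted to 15083 genes with its own independent filter, gave no adjusted p for H19, Meg3, Cdkn1c, Peg3, Grb10 and Tut1. The causes of these changes were not tested.

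The labels number the replicates alike in both groups but do not say that a number marks a shared litter or day. Across tested genes, the differences between replicates 1 and 2 had a correlation of -0.065 between the groups, so the numbers were not taken as pairs. The replicate block gave Igf2 a log2 value of 1.06 and an adjusted p of 0.0595 (edgeR). Fits without a library leave 1 in that group, taken to have the same spread as the other group. At these counts, Dlk1 and partners such as Mirg, Sgce, Usp29 and Snrpn could not be compared.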
